A study of Arabidopsis thaliana with 35 samples.

Results

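The genes described here are 150 Arabidopsis genes that stayed level after 3 h and were higher after 8 h in wild-type (WT) seedlings, taken from 32833 genes counted in the series. For each gene the mean of log2(CPM + 1), where CPM is reads per 1000000 reads of the library, was taken over the WT libraries of each time. Genes were kept when the 3 h mean differed from the uninduced mean by less than 0.25, the 8 h mean differed by 0.5 or more and the 8 h mean was 5 CPM or more. Of 1312 such genes, 947 were higher and 365 lower at 8 h, and the 150 with the largest 8 h increase form the list. The members were therefore chosen by their WT values, which are given as a description without a test. The 2 transgenic lines took no part in the choice and carry the tests.

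RNA was sequenced from whole 7-day-old seedlings in 35 libraries. The er XVE:ER line is an er mutant that carries an estradiol-inducible copy of ERECTA (ER), a receptor kinase, with libraries of uninduced seedlings (4), at 3 h (3) and at 8 h (4). The XVE:EPFL4 line carries an inducible gene for EPFL4, a secreted peptide of the family that ERECTA receptors perceive, with 4 libraries at each time. Its background was taken as wild type, and background and construct are known from the labels alone. WT also had 4 libraries at each time and received the same estradiol, so all 3 lines shared the drug, the transfer and the hours that passed. Uninduced seedlings were placed on mock plates and are labelled 0 h, whereas the methods describe a 3 h mock treatment, and no mock sample stands beside 8 h. Time of day and estradiol therefore cannot be told apart in any line. In er XVE:ER the XVE activator is driven by the viral 35S promoter, so induction is not limited to 1 tissue, and a few seedlings were pooled per library. The labels do not name separate cultures, so p-values measure only the spread between these libraries.

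The induced transgenes were high in their own lines. ER averaged 50.9 ± 9.94 CPM uninduced, 358 ± 95.05 CPM at 3 h and 1092 ± 393 CPM at 8 h in er XVE:ER (SD, n = 4, 3 and 4), whereas EPFL4 averaged 2.42 ± 0.803, 1308 ± 317 and 1878 ± 1086 CPM at the same times in XVE:EPFL4 (SD, n = 4 each). Library totals ran between 18224765 and 25089853 reads. Of the libraries, 2 stood apart from their fellows. LHY, a morning clock gene that was lower at each later time in every line, was at 21.6 CPM in uninduced er XVE:ER replicate 4, while the highest of that group reached 232 CPM, and at 10.3 CPM in WT 3 h replicate 4, where the highest reached 40.6 CPM. WT 3 h replicate 4 entered the choice of members, and the rule without it kept 109 of the 150. Summed CPM of 8 shoot marker genes also moved with time, between 32377 and 47098 at 8 h, against 46249 to 55026 uninduced, in er XVE:ER, and between 27286 and 43640 at 8 h, against 45176 to 52949 uninduced, in XVE:EPFL4. The sum of 9 root marker genes lay between 71.7 and 98.8 CPM at 8 h, against 96.04 to 111 CPM uninduced, in er XVE:ER, and between 57.6 and 95.6 CPM at 8 h, against 93.5 to 121 CPM uninduced, in XVE:EPFL4. Taken singly at 8 h against uninduced (edgeR, adjusted p under 0.05), 1 of the 8 shoot markers was called higher and 3 lower in each line. Of the 9 root markers 0 were called higher, and 2 were called lower in er XVE:ER and 5 in XVE:EPFL4. No root or shoot marker was at 0 in any group, and the part of these shifts in the results below was not tested. In whole seedlings, fewer cells of a type and less RNA per cell cannot be told apart.

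As background, the plant circadian clock is a loop of genes that repress one another in turn. Morning MYB factors such as CCA1 and LHY repress evening genes such as TOC1 by binding a short sequence called the evening element, and TOC1 in turn represses the morning genes. Many genes for photosynthesis, sugar use and growth follow this rhythm, so that many transcripts differ between times of day. Chloroplasts depend on nuclear genes for transcribing, cutting and editing their own RNA, and the pentatricopeptide repeat (PPR) proteins form the largest family of such RNA-binding factors in plants.

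All 150 members are annotated as protein-coding genes in the TAIR10.1 annotation. They lie on chromosome 1 (35), chromosome 2 (12), chromosome 3 (38), chromosome 4 (20) and chromosome 5 (45). Of the members, 3 pairs are direct neighbours (C/VIF2 with FAS2, AT5G61370 with TOC1, and AT1G21670 with AT1G21680). Another annotated gene overlaps 49 members, in 14 cases on the same strand, and because no strand setting is given the counts of these genes are uncertain. DTX1, AT2G25270 and FSD2 share long stretches of near-identical sequence with another locus, which adds doubt to their counts. The median transcript of the members spans 1747 bases, and that of all genes tested 1730.

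The evening element, AAAATATCT, was the motif whose share in the members exceeded that in all promoters by the widest margin among 10 motifs searched on both strands. It lay in the 250 bases before the start of 11 members (7.33%), against 648 of 27443 nuclear protein-coding genes (2.36%). The related CCA1-binding site, AAAAATCT, a different word that the evening element does not contain, was found before 17 members (11.3%), against 6.69% of all promoters. The G-box CACGTG stood before 5 members (3.33%, against 6.49%) and the W-box TTGACC before 8 (5.33%, against 12.2%). For the remaining motifs the members' share came first as follows: site II TGGGCC 14.7% against 13.7%, the I-box GATAAG 11.3% against 12.3%, the DRE core CCGAC 10% against 12%, the telo-box AAACCCTA 2.67% against 4.49%, the ABRE core ACGTGTC 1.33% against 3.68% and the TATA box TATAAA 43.3% against 47.3%. A match is a description of letters and does not show that a factor binds there.

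Of the members named for the largest increases, TOC1 and AT1G21680 hold the evening element before their start, and these stretches are printed because both genes lead the list. PEN3, named for its low response in both lines, also holds the element and is not printed. Both printed stretches are read from the TAIR10.1 assembly (RefSeq) on the plus strand, 5′ to 3′, up to the base before the annotated start. The reverse complement of the element stands in capitals. The TOC1 stretch is chr5:24674713-24674962, with the element beginning 151 bases before the start. That of AT1G21680 is chr1:7612722-7612833, the 112 bases left by its upstream neighbour AT1G21670, with the element 66 bases before the start.
TOC1: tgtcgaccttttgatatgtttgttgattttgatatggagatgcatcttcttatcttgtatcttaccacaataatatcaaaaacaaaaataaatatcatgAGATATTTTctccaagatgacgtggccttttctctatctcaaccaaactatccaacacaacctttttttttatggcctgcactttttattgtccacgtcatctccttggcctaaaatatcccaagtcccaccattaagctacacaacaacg
AT1G21680: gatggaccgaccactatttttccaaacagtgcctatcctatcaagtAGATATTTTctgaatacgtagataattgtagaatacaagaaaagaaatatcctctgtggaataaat

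In WT the members' median level was 7.28 CPM uninduced, 7.77 CPM at 3 h and 18.9 CPM at 8 h. The 8 h increase over uninduced, in log2(CPM + 1), ranged from 5.35 for AT1G07050 to 0.93 for AT5G37570, with a median of 1.102. It exceeded 2 for 5 members and 1 for 118. The threshold fell in a dense stretch: the last 3 members inside (AT5G15640, PARP2 and AT5G37570) stood at 0.930, 0.929 and 0.9285, and the first 3 outside (AT3G52520, MDAR6 and AR192) at 0.9282, 0.928 and 0.926. All 4 WT 8 h libraries lay above all 4 uninduced libraries for 136 members and above all 3 h libraries for 126. Both counts follow in part from the choice of members by these same values, and they were not made over all genes. For 31 members the highest WT 8 h library was at least 2-fold above the lowest. These include MYB51, a regulator of indole glucosinolate genes, at 50.04, 3.60, 12.2 and 43.2 CPM in replicates 1 to 4, and EXPA10, a wall-loosening expansin, at 28.8, 97.01, 96.997 and 28.7 CPM. The WT 8 h libraries of MYB51 overlapped the uninduced ones (6.62 to 10.4 CPM), whereas those of EXPA10 all lay above them (21.7 to 27.1 CPM).

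**Figure D1:**
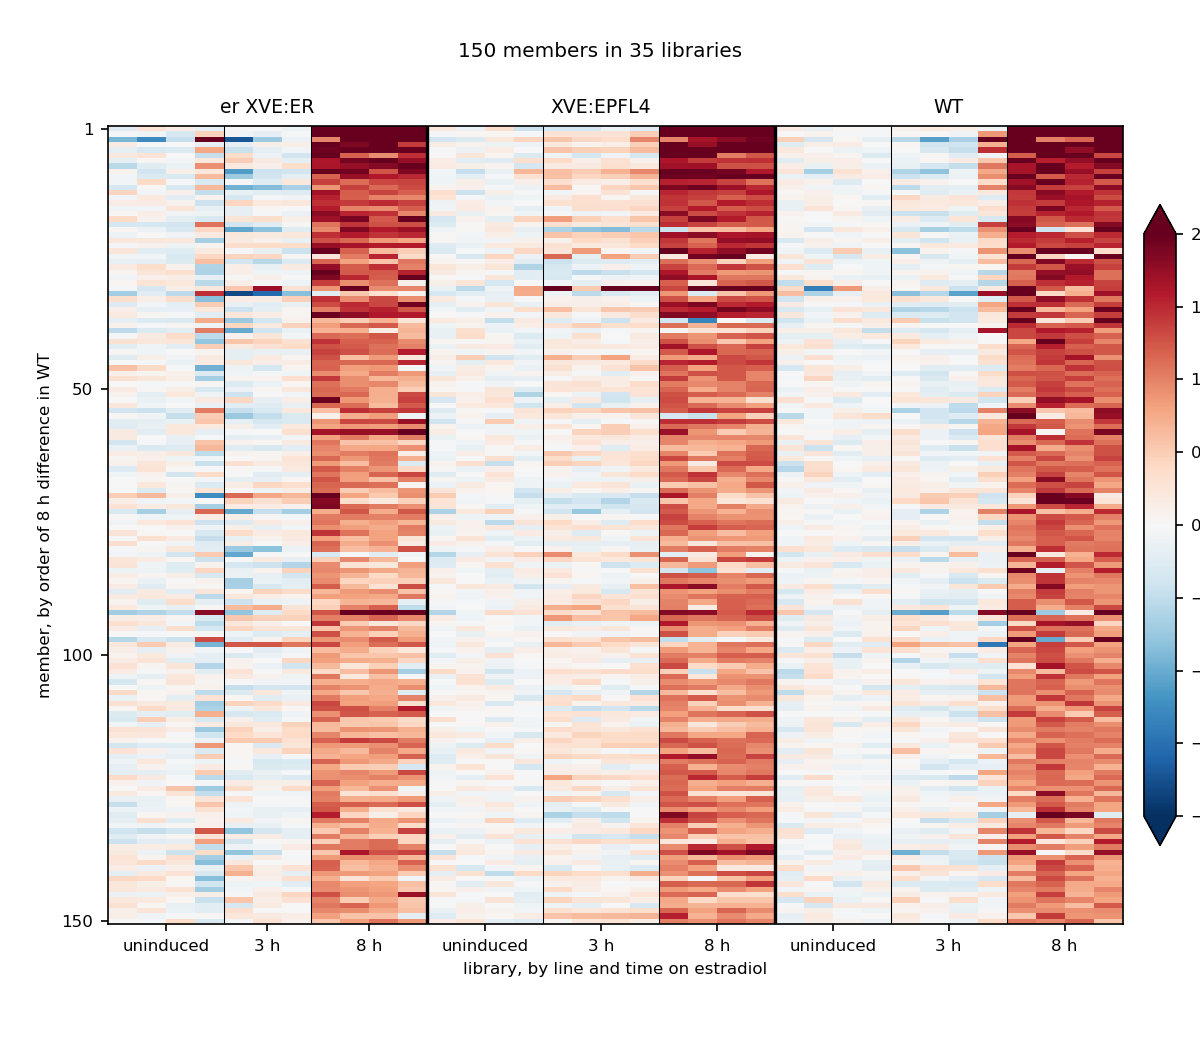
The 150 members (rows, by order of their 8 h increase in WT) in the 35 libraries (columns, by line and time on estradiol), coloured by log2(CPM + 1) minus the mean of the same line's uninduced libraries, with colours ending at 2 in either direction. The 8 h columns were red in er XVE:ER and XVE:EPFL4, which the choice of genes did not use, as well as in WT, and WT 3 h replicate 4 stood out from its fellows.

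In both transgenic lines, most of the 150 members rose at 8 h. Calls were made by the edgeR quasi-likelihood test at an adjusted p of 0.05. In er XVE:ER 119 of 150 members were called higher at 8 h than uninduced and 0 lower. Of the 20329 genes tested there, 12.1% were called higher and 2106 genes lower. In XVE:EPFL4, 138 of 150 were called higher and 0 lower, whereas of 20356 genes 22.8% were called higher and 4121 genes lower. The 0 lower calls stood beside 134 members in er XVE:ER and 142 in XVE:EPFL4 with an unadjusted p under 0.05 in either direction, and DESeq2 called 0 lower in er XVE:ER and 1, the purine transporter PUP7, in XVE:EPFL4. The median log2 fold change of the members was 0.99 in er XVE:ER (all genes tested: -0.01) and 1.06 in XVE:EPFL4 (all genes tested: 0.03). The quartiles of the members lay at 0.79 and 1.2998 in er XVE:ER and at 0.84 and 1.37 in XVE:EPFL4. Every 8 h library lay above every uninduced library for 109 members in er XVE:ER, where 13.3% of genes tested did so, and for 131 in XVE:EPFL4, against 23.7% of genes. In both lines 116 members were called higher, whereas 9.81% of the 20136 genes tested in both were. Without uninduced er XVE:ER replicate 4, 126 members were called higher in that line. Among the 109 members kept without WT 3 h replicate 4, 89 were called higher in er XVE:ER and 103 in XVE:EPFL4. Among the 101 members that overlap no other gene, the counts were 83 and 92 in the same order.

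At 3 h most members were not called against uninduced seedlings, which also held for all genes tested. In er XVE:ER 4 were called higher (4.51% of genes tested were) and 2 lower (2.53% of genes), and the members' median log2 fold change was -0.04. PBL1, a receptor-like cytoplasmic kinase (0.37), BGLU42, a beta-glucosidase (0.49), SIG4, a plastid sigma factor (0.45), and EXPA15 (1.11) rose, while AT4G19390 and AGL26 fell by 1.04 and 0.44 on the log2 scale. In XVE:EPFL4 19 were called higher (12.7%, against 11% of genes) and 4 lower (10% of genes), with a median of 0.12. The share called higher there was thus no smaller than that of all genes. The 4 that fell were AT1G69890, by 0.79, EXPA10, by 0.50, PnsL3, a subunit of the chloroplast NDH complex, by 0.47, and AT4G33960, by 0.46. BGLU42, EXPA15 and SIG4 were called at 3 h in both lines. DTX1, a multidrug efflux carrier, already stood 2.49 ± 0.55 higher at 3 h in XVE:EPFL4 (SE, adjusted p = 0.0056), and its 8 h level there did not pass the test against 3 h (0.44 ± 0.47, adjusted p = 0.49). The 3 h log2 fold change was within 0.25 of 0 for 92 members in er XVE:ER and 84 in XVE:EPFL4, out of 150, while 52.0% and 56.6% of all genes tested were. The 3 h calls in er XVE:ER were not robust to leaving out 1 library. Leaving out any of its 3 h libraries left 0 members called, and leaving out uninduced replicates 1, 2 or 3 left 2, 2 and 1. Without uninduced replicate 4 there were 9. In XVE:EPFL4 leaving out any 1 library but uninduced replicate 4, which left 19, brought the 23 calls to between 12 and 15.

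The 8 h libraries also stood above the 3 h libraries of the same line. In er XVE:ER 104 members were higher at 8 h than at 3 h and 0 lower. Of the 20329 genes tested, 6.92% were called higher and 1161 genes lower. The members' median log2 fold change was 1.04, and 130 members had an unadjusted p under 0.05. DESeq2 also called 0 lower there. Without 3 h replicate 2 the count of higher members was 68. In XVE:EPFL4 133 were higher (16.4% of genes) and 1, MYB51, was lower (14.8% of genes). In all, 97 members were called higher at 8 h against both earlier times in both lines. The same combination was not counted over all genes.

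**Figure D2:**
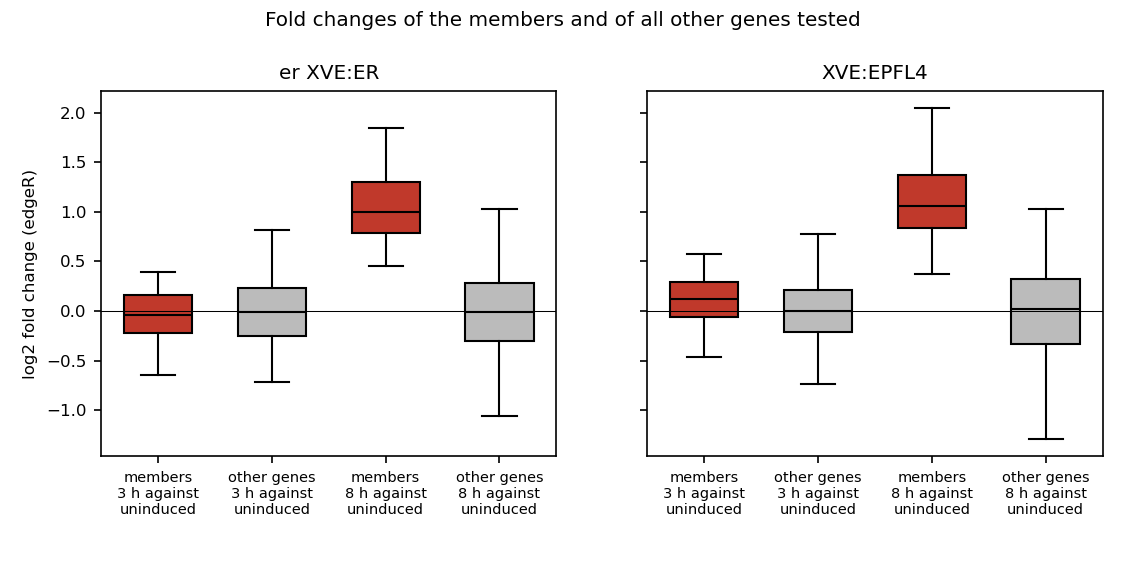
Log2 fold changes at 3 h and at 8 h against uninduced for the 150 members (red) and all other genes tested (grey) in er XVE:ER and XVE:EPFL4. Lines in the boxes are medians, boxes span the quartiles and whiskers the 5th to 95th percentile; the members' medians lay at -0.04 and 0.12 at 3 h and at 0.99 and 1.06 at 8 h.

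AT1G07050 had the largest 8 h increase of the 150 members in every line. It is annotated as a protein of the CCT motif family, to which TOC1 and CONSTANS also belong. It stood at 0.368, 0.997, 0.812 and 0.425 CPM in uninduced er XVE:ER seedlings, at 0.604, 0.602 and 0.522 CPM at 3 h and at 76.6, 75.8, 67.1 and 95.02 CPM at 8 h. The 8 h libraries lay far above both earlier groups, which overlapped each other, and the log2 fold change at 8 h was 6.88 ± 0.26 (SE, adjusted p = 1.6e-08). In XVE:EPFL4 it averaged 0.916 ± 0.438 CPM uninduced, 0.554 ± 0.121 CPM at 3 h and 81.9 ± 6.95 CPM at 8 h (SD, n = 4 each), and its log2 fold change was 6.39 ± 0.23 there (SE, adjusted p = 1.3e-10). In WT the means at the same times were 0.726, 0.824 and 69.4 CPM.

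TOC1, the evening repressor of the clock, had 31.3, 30.3, 25.3 and 44.8 CPM in uninduced er XVE:ER seedlings, 30.8, 28.8 and 31.5 CPM at 3 h and 202.01, 217, 236 and 161 CPM at 8 h. All 8 h values were above all others, and the highest uninduced value was that of replicate 4. Its 8 h log2 fold change was 2.59 ± 0.18 in er XVE:ER and 2.93 ± 0.08 in XVE:EPFL4 (SE, adjusted p = 1.2e-06 and 4.9e-12). In XVE:EPFL4 it had also risen at 3 h, by 0.30 ± 0.07 (SE, adjusted p = 0.0094).

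Clock genes outside the list had also moved by 8 h, and part of them already by 3 h. Of 14 day and evening clock genes 9 were higher at 8 h and 1 lower in each line (median log2 fold changes 2.36 in er XVE:ER and 2.65 in XVE:EPFL4), and of 12 morning clock genes 1 was higher and 9 lower in each (medians -3.81 and -4.49). TOC1 was the only one of them among the members. At 3 h, 5 of the 14 were already higher and 1 lower in er XVE:ER, and 11 were higher and 0 lower in XVE:EPFL4. Of the 12 morning genes, 0 were higher and 3 lower at 3 h in er XVE:ER, and 1 was higher and 9 lower in XVE:EPFL4. The list of 13 ERECTA and EPFL pathway genes holds no member. At 8 h the induced ER was the 1 gene of it called in er XVE:ER, where 12.1% of all genes tested were called higher. In XVE:EPFL4 3 were called higher (the induced EPFL4, EPF2 and FAMA), where 22.8% of all genes tested were. ERL2 was called lower there, as were 4121 of 20356 genes. EPF2 (0.72), FAMA (0.27) and ERL2 (-0.40) moved in the same direction in er XVE:ER without a call.

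**Figure D3:**
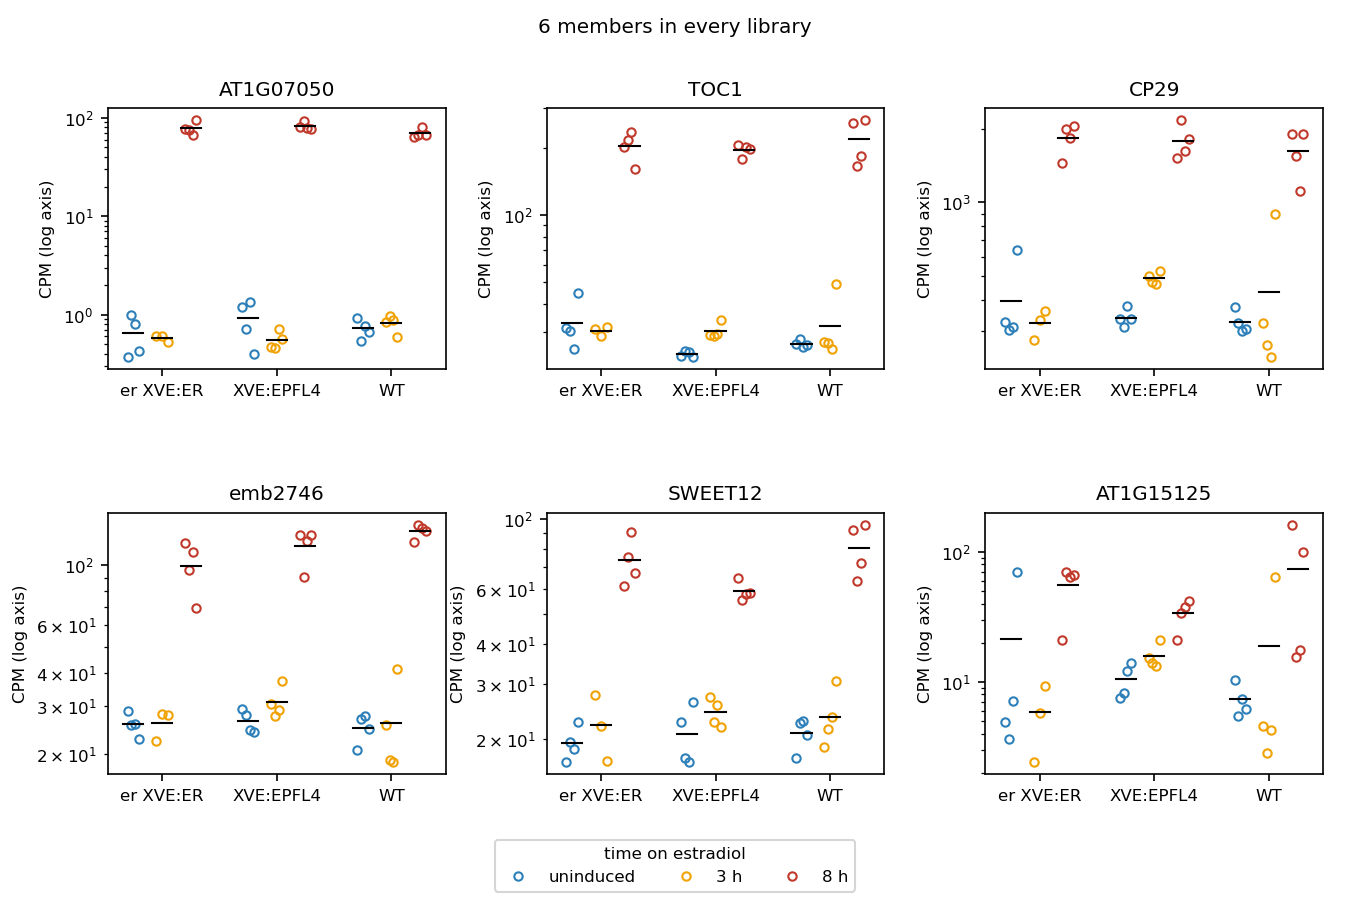
CPM (log axis) of 6 members in every library of er XVE:ER, XVE:EPFL4 and WT, by time on estradiol (blue, uninduced; yellow, 3 h; red, 8 h), with the mean as a bar. AT1G07050 and TOC1 were separated from both earlier times in every line, while AT1G15125 overlapped them through uninduced er XVE:ER replicate 4 (69.7 CPM) and WT 3 h replicate 4 (64.0 CPM).

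For 76 of the 150 members a role could be read from the annotation, and these were placed in 9 groups after the members were known, so that the counts below describe the list. Genes for plastid gene expression numbered 8, and all 8 rose in both lines, with median log2 fold changes of 1.28 in er XVE:ER and 1.19 in XVE:EPFL4. CP29, an RNA-binding protein that stabilizes chloroplast transcripts, had the largest 8 h increase of them in both lines. It had 327, 304, 312 and 640 CPM in uninduced er XVE:ER seedlings, 277, 331 and 363 CPM at 3 h and 1454, 1986, 1836 and 2056 CPM at 8 h. The 8 h libraries stood clear of the others, and the uninduced value of 640 CPM was again replicate 4. CP29 rose on the log2 scale by 2.19 ± 0.26 in er XVE:ER and 2.30 ± 0.15 in XVE:EPFL4 (SE, adjusted p = 1.0e-04 and 3.2e-08). The product of emb2746, annotated as an RNA-metabolising metallo-beta-lactamase, belongs to a class of RNA-cutting enzymes. It averaged 25.7 ± 2.51 CPM uninduced, 26.1 ± 3.26 CPM at 3 h and 99.6 ± 22.4 CPM at 8 h in er XVE:ER (SD, n = 4, 3 and 4), with log2 fold changes at 8 h of 1.92 in er XVE:ER and 2.05 in XVE:EPFL4.

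The other 6 genes of this group were PTAC6, a subunit of the plastid-encoded RNA polymerase complex (1.49 in er XVE:ER and 1.62 in XVE:EPFL4), SIG4, which directs that polymerase to chosen promoters (1.24 and 1.12 in the same order), AT2G37220, MRL7, AT5G48470 and EMB2219. PTAC6 (0.49), SIG4 (0.34) and the RNA-binding protein CP29 (0.49) were also called higher at 3 h in XVE:EPFL4. A further 7 members serve other plastid functions, and all 7 rose in er XVE:ER and 6 in XVE:EPFL4. Among them were the iron superoxide dismutases FSD2 (0.88 in er XVE:ER and 0.77 in XVE:EPFL4) and FSD3 (0.94 and 0.98), the NDH complex genes PnsL3 (1.503 and 1.07) and CRR7 (1.81 and 1.38), and SECA2, a protein translocation ATPase (0.92 and 0.93). CRR42 was the 1 not called in XVE:EPFL4, at 0.55 ± 0.23 (SE, adjusted p = 0.067).

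PPR proteins and proteins annotated as TPR-like, a name that in this annotation also covers PPR proteins such as OTP84, made up 29 of the 150 members (19.3%), while 2.5% of the genes tested in XVE:EPFL4 belong to them. Of the 29, 24 rose in er XVE:ER and all 29 in XVE:EPFL4, with medians of 0.93 and 1.14 in that order. OTP84, a chloroplast RNA editing factor, averaged 6.16 ± 0.396 CPM uninduced, 8.20 ± 0.939 CPM at 3 h and 13.1 ± 2.67 CPM at 8 h in er XVE:ER (SD, n = 4, 3 and 4). DOT4 (1.35 in er XVE:ER and 1.29 in XVE:EPFL4) and SLO2 (1.16 and 0.88), also organelle RNA editing factors, and EMB2261 (1.11 and 1.66) rose in both lines. The rest of both families, outside the list, had also moved upward more often than all genes: 94 of 478 were higher at 8 h and 16 lower in er XVE:ER, and 220 of 479 were higher and 29 lower in XVE:EPFL4. At 3 h, 10 of the 478 were higher and 4 lower in er XVE:ER (2.09% higher, against 4.51% of all genes tested), and 19 of the 479 were higher and 23 lower in XVE:EPFL4 (3.97% higher, against 11%). Of the 34 single-exon members (22.7%, against 15.9% of genes tested), 19 were such repeat proteins.

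Members for DNA synthesis and repair numbered 10, of which 5 rose in er XVE:ER and 9 in XVE:EPFL4, with medians of 0.67 and 0.78. TSO2, a small subunit of ribonucleotide reductase, which makes the building blocks of DNA, had 55.6, 52.5, 53.4 and 25.9 CPM in uninduced er XVE:ER seedlings, 66.2, 61.3 and 55.5 CPM at 3 h and 124, 104, 103 and 87.6 CPM at 8 h. No 8 h library reached down to the earlier ones, and replicate 4 was the lowest uninduced value. Its 8 h log2 fold change was 1.13 ± 0.20 in er XVE:ER and 0.82 ± 0.13 in XVE:EPFL4 (SE, adjusted p = 0.0017 and 2.3e-04). DUT1, a dUTPase, ETG1, a replisome factor, FAS2, a chromatin assembly factor subunit, and RECQ4A, a DNA helicase, rose in both lines. BRCA1 and PARP2, of DNA repair, rose in XVE:EPFL4 (0.73 and 1.03) and were at 0.27 and 0.50 in er XVE:ER (adjusted p = 0.41 and 0.065), where PARP2 passed at 0.66 without 8 h replicate 4 (adjusted p = 0.0035). Of a separate list of 6 DNA replication genes, in which TSO2 is the only member, 2 rose in er XVE:ER and 4 in XVE:EPFL4.

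All 3 members of sugar transport and use rose in both lines. SWEET12, a sucrose exporter of the phloem, had 16.9, 19.6, 18.6 and 22.6 CPM in uninduced er XVE:ER seedlings, 27.6, 21.9 and 17.0 CPM at 3 h and 61.3, 75.7, 90.8 and 67.2 CPM at 8 h. The uninduced and 3 h values overlapped and the 8 h values did not reach them. The 8 h log2 fold change was 1.89 ± 0.17 in er XVE:ER and 1.40 ± 0.14 in XVE:EPFL4 (SE, adjusted p = 1.2e-05 and 2.2e-06). C/VIF2, an invertase inhibitor, rose by 1.86 in er XVE:ER and 1.49 in XVE:EPFL4, and SPS1F, a sucrose phosphate synthase, by 0.79 and 0.67. Of 14 starch breakdown genes, none of which is a member, 11 rose at 8 h in er XVE:ER and 12 in XVE:EPFL4, and 1 fell in each. Unlike the members, many of these were already called at 3 h: 8 higher and 0 lower in er XVE:ER, and 12 higher and 2 lower in XVE:EPFL4.

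Of 6 cell wall and cytoskeleton members 4 rose in er XVE:ER and 5 in XVE:EPFL4. EXPA15, an expansin, had 39.4, 48.6, 37.7 and 17.1 CPM in uninduced er XVE:ER seedlings, 80.4, 80.6 and 71.5 CPM at 3 h and 85.8, 60.5, 73.8 and 80.8 CPM at 8 h. It was thus already higher at 3 h there, and its 8 h log2 fold change of 1.05 ± 0.24 (SE, adjusted p = 0.0085) was no larger than the 1.11 at 3 h. EXPA10 missed the threshold in both lines, at 0.87 ± 0.30 in er XVE:ER, where 1 library of 67.0 CPM stood above the other 3 (20.9 to 25.4 CPM), and at 0.40 ± 0.16 in XVE:EPFL4 (SE, adjusted p = 0.055 and 0.057). It passed in er XVE:ER with DESeq2 (0.87, adjusted p = 0.023), with all 35 libraries in 1 fit and without 8 h replicate 2 or 3, and in XVE:EPFL4 without uninduced replicate 1 or 8 h replicate 3 or 4. Of 13 expansin and wall-loosening genes tested 5 rose in er XVE:ER and 6 in XVE:EPFL4, with medians of 0.68 and 0.40.

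**Figure D4:**
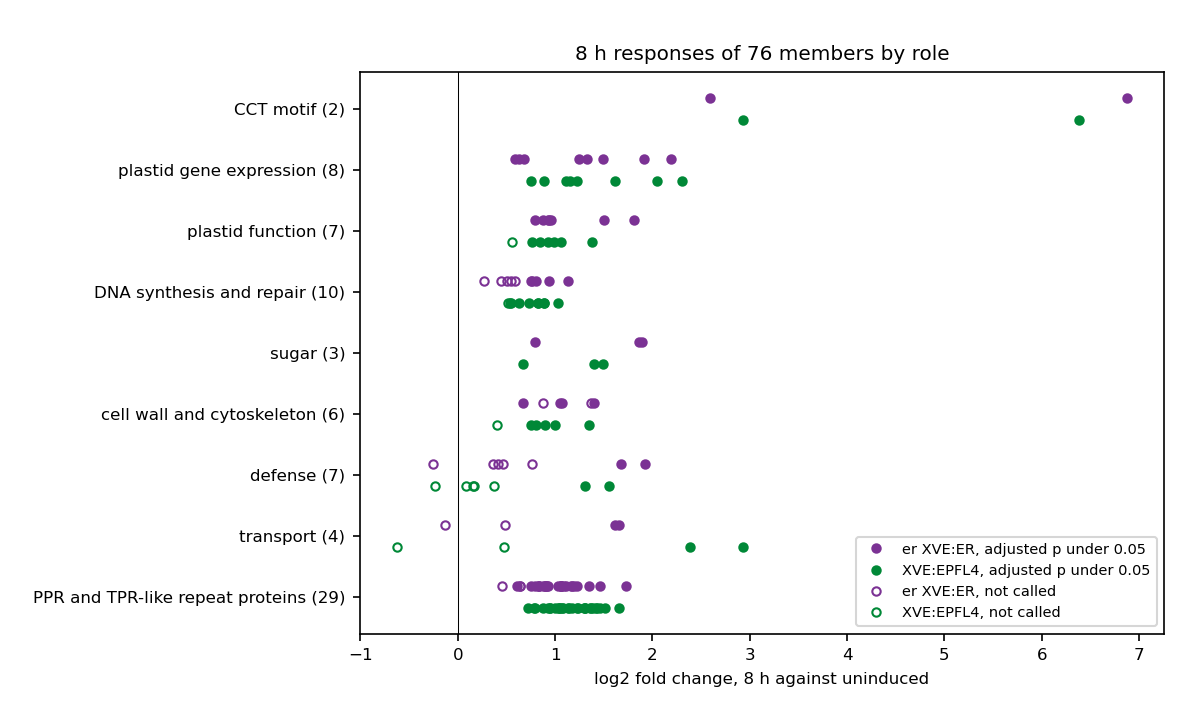
Log2 fold change at 8 h against uninduced for the 76 members with a role, 1 point per gene, in er XVE:ER (purple, upper row of each group) and XVE:EPFL4 (green, lower row); filled points passed an adjusted p of 0.05. All points of the plastid gene expression group were filled in both lines, whereas 2 of 7 defense points were.

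Defense genes were the group in which the WT pattern recurred least. Of 7 such members 2 rose in each line, PR5, a thaumatin-like pathogenesis-related protein, and PBL1. PR5 averaged 6.48 ± 1.67 CPM uninduced, 7.73 ± 0.691 CPM at 3 h and 24.7 ± 7.14 CPM at 8 h in er XVE:ER (SD, n = 4, 3 and 4), with log2 fold changes at 8 h of 1.92 in er XVE:ER and 1.55 in XVE:EPFL4. PR4, PEN3, an ABC transporter of the plasma membrane, CRK14, a cysteine-rich receptor-like kinase, AT1G63730 and MYB51 were called in neither line. PEN3 had 554, 848, 913 and 477 CPM at 8 h, against 520, 490, 374 and 731 CPM uninduced, in er XVE:ER, and the groups overlapped. In WT the same gene stood at 1762, 447, 635 and 1336 CPM at 8 h, against 273, 385, 470 and 513 CPM uninduced. The highest 2 WT 8 h values of PEN3, MYB51, CRK14, PUP7 and AT1G69890 were those of replicates 1 and 4. Of 4 transporters, DTX1 and NRT2.6, of the high-affinity nitrate transporter family, rose in both lines, while AT3G23550, of the same carrier family as DTX1, and PUP7 were called in neither. The call of DTX1 in er XVE:ER was lost without uninduced replicate 2 (adjusted p = 0.052) or 8 h replicate 2 (adjusted p = 0.055), and AT3G23550 passed in XVE:EPFL4 without uninduced replicate 4 (0.88, adjusted p = 0.017).

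In all, 9 members were called in neither line: the 5 defense genes just named, AT3G23550, PUP7, EXPA10 and TK1a, a thymidine kinase (0.45 in er XVE:ER and 0.51 in XVE:EPFL4, adjusted p = 0.13 and 0.054). A further 22 were called in XVE:EPFL4 alone and 3 in er XVE:ER alone (AT1G69890, AT5G39020 and CRR42). AT1G15125, annotated as a methyltransferase and overlapped by AT1G15120, was among the 22. It had 4.90, 3.62, 7.07 and 69.7 CPM in uninduced er XVE:ER and 21.0, 69.6, 64.6 and 66.0 CPM at 8 h, so 1 uninduced library overlapped the 8 h group. Its log2 fold change there was 1.34 ± 0.83 (SE, adjusted p = 0.27), and without uninduced replicate 4 it was 3.39 (adjusted p = 3.4e-04). MYB51 (1.4994) and PUP7 (0.86) were also called higher in er XVE:ER without that library. In XVE:EPFL4 PUP7 was called lower without uninduced or 8 h replicate 3, AT5G39020 was called lower without 8 h replicate 3 (-0.65), and AT1G69890 was called higher without 8 h replicate 1 (0.58).

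Of the other leading members, AT3G61920 was low in every line and uneven at 8 h, at 10.2, 2.46, 1.93 and 3.18 CPM at 8 h, against 0.737, 0.840, 0.525 and 0.106 CPM uninduced, in er XVE:ER (log2 fold change 2.96 ± 0.66, SE). GRP3S, a glycine-rich protein, averaged 470 ± 127 CPM at 8 h, against 129 ± 21.4 CPM uninduced, in er XVE:ER, and 490 ± 244 CPM at 8 h, against 107 ± 38.7 CPM uninduced, in XVE:EPFL4 (SD, n = 4 each). The groups overlapped for neither gene in either line. AT1G21680, whose promoter is printed above, rose by 1.45 ± 0.23 in er XVE:ER and 1.98 ± 0.12 in XVE:EPFL4 on the log2 scale (SE, adjusted p = 8.1e-04 and 1.4e-08). Of the 11 members with an evening element 10 rose in each line, with medians of 1.31 and 1.303, and the 1 not called in either was PEN3. Over all 150 members, 79.3% rose in er XVE:ER and 92% in XVE:EPFL4. Of the 17 with a CCA1-binding site 8 rose in er XVE:ER and 15 in XVE:EPFL4, with medians of 0.81 and 1.03.

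AT5G11070, of no annotated function, and AT5G16980, a dehydrogenase by annotation, rose in both lines (1.84 and 1.43 in er XVE:ER, 0.96 and 2.204 in XVE:EPFL4). BGLU42 was higher at each later time, with 17.7, 18.01, 17.0 and 13.1 CPM uninduced, 24.0, 23.04 and 22.8 CPM at 3 h and 33.7, 33.3, 37.8 and 32.6 CPM at 8 h in er XVE:ER, and the 3 groups did not overlap. The lowest er XVE:ER responses, besides those of CRK14, AT3G23550 and PEN3, were those of BRCA1 and ABAP1, a repressor of DNA replication licensing, at 0.27 and 0.31.

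The members' 8 h responses were then compared between the lines by the difference of the log2 fold changes, er XVE:ER minus XVE:EPFL4. These lines differ in background (er mutant and wild type) as well as in the induced gene. AT5G39020, of the malectin-like receptor kinase family, was the 1 member called, while 0.756% of 20777 genes were called in either direction. It had 8.49, 8.04, 7.27 and 6.84 CPM at 8 h, against 3.58, 3.57, 3.15 and 5.57 CPM uninduced, in er XVE:ER. In XVE:EPFL4 it had 4.20, 2.86, 7.25 and 4.74 CPM at 8 h, against 6.19, 5.34, 4.90 and 6.54 CPM uninduced. The 8 h libraries thus lay above the uninduced ones in er XVE:ER and overlapped them in XVE:EPFL4, and the responses differed by 1.31 ± 0.31 (SE, adjusted p = 0.047). The call lies close to the threshold. When each of the 16 libraries was left out in turn, AT5G39020 kept the call 2 times, without uninduced er XVE:ER replicate 4 and without XVE:EPFL4 8 h replicate 3, and the adjusted p lay between 0.0056 and 0.11 over the 16. Without uninduced er XVE:ER replicate 4, MYB51 (1.74), AT1G69890 (1.38) and PUP7 (1.502) were called beside it. AT1G69890 (1.36) and BRG2 (-1.09) were called without er XVE:ER 8 h replicate 1, and AT5G11070 (1.196) without XVE:EPFL4 8 h replicate 1. The median difference over the members was -0.06. A miss of the threshold does not show that the lines responded alike: for DTX1 the difference was -1.27 ± 0.76, for AT1G69890 1.202 ± 0.34, for PUP7 1.11 ± 0.39 and for MYB51 0.99 ± 0.43 (SE, adjusted p = 0.60, 0.12, 0.26 and 0.41).

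**Figure D5:**
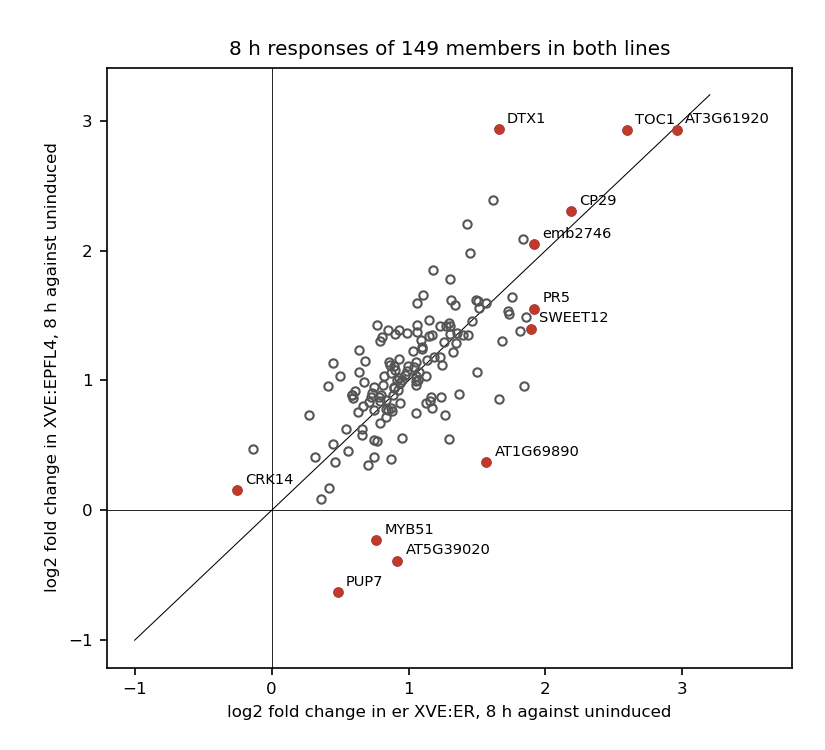
Log2 fold change at 8 h against uninduced in er XVE:ER (horizontal) and XVE:EPFL4 (vertical) for 149 members, with equal responses on the diagonal and genes discussed in the text in red; AT1G07050 (6.88 and 6.39) lies beyond the axes. PUP7, AT5G39020 and MYB51 were below 0 in XVE:EPFL4 and above 0 in er XVE:ER, and of these AT5G39020 alone passed the test of the difference.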

How the data were processed

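Reads were mapped by the authors to TAIR10 with STAR 2.7.11a. The deposited values are raw counts for each gene, in 35 files of 1 library each. Strand setting and handling of duplicates are not given in the sources used here. CPM was computed here as the count over the file total, per 1000000 reads, and members were chosen by the rule stated above with a pseudocount of 1. The members and all gene lists were chosen with earlier results of these data known.

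Counts were fitted in R 4.3.3 with edgeR 4.0.16 (filterByExpr with a minimum count of 10 and total of 15, TMM, glmQLFit, glmQLFTest, Benjamini-Hochberg adjustment over all genes tested, threshold 0.05). Each line was fitted on its own libraries, and both together for the difference of responses. SE is the absolute log2 fold change over the root of F. The fits were tested on simulated data. DESeq2 1.42.0, other size factors, no filter, a replicate block, all 35 libraries in 1 fit and leaving out each library were tried. Libraries of 1 group differed beyond sampling noise in all 51 pairs (chi-square per degree of freedom 3.47 or more), so none was merged.

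Genes named are the 10 with the largest WT increase, per line the 10 largest called without overlap and the 5 lowest, the 5 largest differences between lines, members on a list, the 3 on each side of the threshold and the 5 largest changes called at 3 h. Others were named by role after their values were seen. Coordinates and promoters come from TAIR10.1 (RefSeq), which matched 32548 of 32833 identifiers, and near-identical copies from blastn 2.17.0 (95% identity over at least 150 bases). Precision is limited by 3 or 4 libraries per group.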

Additional observations from a re-analysis of the deposited data

Results flagged for a closer look

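Of 88 groups of 4 libraries examined (the members' mean level and the 10 leading members), 13 held a library whose gap to its fellows exceeded Dixon's 95% value, where chance gives about 1 in 20. WT 3 h replicate 4 stood high for TOC1 (49.4 CPM, the others 25.2 to 27.1), AT1G15125 (64.0 CPM, the others 2.86 to 4.56), CP29 (900.4 CPM, the others 234 to 324), C/VIF2 (16.2 CPM, the others 4.92 to 6.45) and AT1G21680 (164.6 CPM, the others 63.9 to 78.2). Uninduced er XVE:ER replicate 4 stood high for AT1G15125 (69.7 CPM) and CP29 (640 CPM). At 8 h, er XVE:ER replicate 1 was low for AT1G15125 (21.0 CPM, the others 64.6 to 69.6) and high for AT3G61920 (10.2 CPM, the others 1.93 to 3.18). The remaining such libraries were XVE:EPFL4 3 h replicate 4 for TOC1 (33.9 CPM), XVE:EPFL4 8 h replicate 1 for GRP3S (851 CPM), uninduced WT replicate 4 for AT3G61920 (0.478 CPM) and uninduced WT replicate 2 for the members' mean log2(CPM + 1) (3.46, the others 3.39 to 3.40).

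Between the lines, the 8 h response of AT5G39020 differed, er XVE:ER minus XVE:EPFL4, by 1.31 on the log2 scale (edgeR, adjusted p = 0.047).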

How the results depend on the processing

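The counts of members called at 8 h stayed within 1.5 times the main count under every alternative run, except at 8 h against 3 h in er XVE:ER without 1 library. Leaving out 1 library at a time gave 109 to 126 members (main 119) at 8 h in er XVE:ER, 135 to 140 (138) in XVE:EPFL4, 68 to 101 (104) at 8 h against 3 h in er XVE:ER, 129 to 135 (134) in XVE:EPFL4, 0 to 9 (6) at 3 h in er XVE:ER, 12 to 19 (23) in XVE:EPFL4 and 0 to 4 (1) for the difference of responses. With all 35 libraries in 1 fit 8 members were called at 3 h in XVE:EPFL4 and 0 for the difference. The difference gave 2 with DESeq2 (AT5G39020 and AT1G69890), 0 with no filter beyond 1 count and 4 without uninduced er XVE:ER replicate 4. Same-numbered libraries deviated together (correlation over 0.1) in 6 of 10 pairs in er XVE:ER, all of replicates 1 and 4. In XVE:EPFL4 1 of 12 pairs did so (range -0.43 to 0.34 over both lines). The main fits nevertheless did not take the numbers as pairs in either line. With a replicate block 127 members were called at 8 h in er XVE:ER, 139 in XVE:EPFL4 and 1 for the difference. Of the named genes, AT1G15125 (2.14, adjusted p = 0.027) and MYB51 (0.99, adjusted p = 0.043) gained a call with the block, both in er XVE:ER. The rule kept 94 of the 150 with a 3 h limit of 0.15 and 88 with 0.4, and 109 to 133 without 1 WT library. The counts over members kept without WT 3 h replicate 4 or free of overlap were added after seeing the data. Of 1517 values of named genes under the alternatives, 25 lost and 33 gained a call, and no called change reversed. Levels of a few CPM, such as AT3G61920, limit precision most.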
